A study of Rattus norvegicus with 48 samples.

Results

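The genes described here encode the factors that start translation (the eIF genes) and extend the peptide chain (the eEF genes), together with Rack1, a scaffold protein of the small ribosomal subunit. They were measured on rat whole-transcript arrays in liver biopsies of male Wistar rats weighing 300 to 350 g, with 1 array per animal. Members were the genes whose single platform symbol began with Eif or Eef followed by a digit, plus Rack1, without the Eif2ak kinases, the Eif4ebp genes and Eef2k. This gave 51 probe sets for 49 genes, of 14506 genes on the array with a single symbol, and the probe set of highest mean over the 48 arrays stood for each gene. The rule itself uses symbols and mean levels, with no difference between groups, although the set was proposed with earlier results of these data known. Eif4g1, Eif3f and Eif3g, which the rule would take, are among the factors not analysed here. In the group called IPC+IPO (10 animals), 10 min of hepatic ischemia and 10 min of reperfusion came before the ischemic period, and 3 cycles that alternated 30 sec of flow with 30 sec of occlusion came after it. IPO animals (10) had only those cycles, known as ischemic postconditioning. IPC animals (10) had only the brief first episode, known as ischemic preconditioning. IRI animals (10) had neither intervention. In all of these the whole liver was ischemic for 30 min and was reperfused for 30 min before the right lobe was sampled. Sham animals (8) underwent laparotomy alone. All 5 groups shared strain, sex and the fentanyl/fluanisone and midazolam anaesthesia. Nothing in the labels gives a day, a batch or a pairing of animals.

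Translation begins when eIF2 with GTP brings the initiator tRNA to the small ribosomal subunit, where eIF1, eIF1A and the large eIF3 complex are bound. The cap-binding protein eIF4E, the scaffold eIF4G and the helicase eIF4A recruit the mRNA, eIF5 triggers GTP hydrolysis at the start codon, and eIF5B joins the large subunit. The exchange factor eIF2B recharges eIF2, and this step is blocked when stress kinases phosphorylate eIF2, a response well known in ischemic tissue. In elongation the eEF1 complex delivers aminoacyl-tRNA and eEF2 moves the ribosome by a codon. In mammals the mRNAs of most elongation factors, and of some initiation factors, carry a terminal oligopyrimidine (TOP) tract at the 5′ end, through which mTOR signalling controls their translation along with that of ribosomal protein mRNAs. These are features of protein activity and of mRNA translation, whereas arrays measure the amount of mRNA alone. In a biopsy, fewer cells of a type and less RNA per cell cannot be told apart.

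The 5′ ends are shown for some of the genes on which the results turn, since TOP and other members are described separately. Each window runs 5′ to 3′ on the gene's strand from 40 bases before to 20 bases after the RefSeq start in the assembly GRCr8. Capitals mark each run of a C followed by at least 6 bases that are all C or T, and no other motif was searched.
Rack1 at chr10:33670510-33670569, plus strand: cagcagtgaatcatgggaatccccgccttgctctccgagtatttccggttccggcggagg
Eef1g at chr1:215289775-215289834, plus strand: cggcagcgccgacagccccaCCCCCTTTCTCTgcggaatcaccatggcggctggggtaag
Eef1b2 at chr9:72074051-72074110, plus strand: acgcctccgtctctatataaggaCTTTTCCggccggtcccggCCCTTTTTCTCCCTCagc
Eef1a1 at chr8:88225050-88225109, minus strand: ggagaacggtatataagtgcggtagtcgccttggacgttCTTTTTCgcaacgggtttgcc
Eef2 at chr7:9189219-9189278, minus strand: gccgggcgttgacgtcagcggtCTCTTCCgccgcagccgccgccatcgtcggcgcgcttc
Eif5b at chr9:47718666-47718725, plus strand: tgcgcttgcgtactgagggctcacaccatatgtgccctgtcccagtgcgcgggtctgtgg
Eif3a at chr1:269919006-269919065, minus strand: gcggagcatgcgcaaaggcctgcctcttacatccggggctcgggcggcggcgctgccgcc
Eif2b3 at chr5:135728802-135728861, plus strand: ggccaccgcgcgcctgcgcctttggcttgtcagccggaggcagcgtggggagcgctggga
Eif4e at chr2:229740713-229740772, plus strand: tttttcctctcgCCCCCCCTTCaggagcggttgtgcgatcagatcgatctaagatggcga
The longest run had 15 bases in Eef1b2, 12 in Eef1g, and 7 in both Eef1a1 and Eef2. It began at position -1 in Eef1a1, 3 in Eef1b2, -20 in Eef1g and -18 in Eef2, where position 1 is the RefSeq start. The Rack1 window held no such run. Some genes that rose in IPO over IRI livers are not printed above. Of these, Eif2s3 had a run of 12 bases from position 5 and Eif4h one of 8 from position -7. Eif2b1, Eif3b, Eif3c and Eif4g2 had none. Windows were available for 43 of the 49 genes, among them 5 of the 9 measured TOP genes (Rack1, Eef1g, Eef1b2, Eef1a1 and Eef2). The TOP genes without a window are Eef1d and the initiation factors Eif3e, Eif3h and Eif4b. Such a run was present in 4 of 5 windows of TOP members (80.0%) and in 17 of 41 windows of the other members (41.5%), against 26.6% of all 33469 RefSeq windows of this length. On the opposite strand the run was present in 0 of 5 and 8 of 41 windows, against 28.1% of all windows. A match in these letters is a description of the window and does not locate the cap site. TOP genes are listed for a tract of this kind, so their share is no test of the label.

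The deposited values are log2 levels made by the authors with RMA, which corrects background, equalises probe distributions and summarises probes. Array medians ranged from 5.78 to 5.92. The liver markers Alb, Apoa1, Ttr and Cps1 lay at or above percentile 98.3 of every array, so the tissue label and the data are not in conflict. The spread of an array, meaning the SD of its log2 values over the 14506 genes, ranged from 1.498 to 1.965. It averaged 1.86 ± 0.15 in IPC+IPO, 1.91 ± 0.065 in IPO, 1.85 ± 0.083 in IPC and 1.77 ± 0.11 in IRI livers (SD, n = 10 each), and 1.72 ± 0.13 in Sham livers (SD, n = 8). The mean level of the 49 genes moved with this spread across arrays. Its median per array was 8.21 in IPC+IPO, 8.24 in IPO, 8.16 in IPC, 8.01 in IRI and 7.75 in Sham livers. The lowest spread and the lowest mean level of the genes belonged to 2 arrays, IPC+IPO animal 38 (spread 1.498, mean level 7.39) and IRI animal 7 (spread 1.537, mean level 7.35). IRI animal 7 also had the lowest mean correlation with the other arrays, 0.888. Counts of called genes are therefore also given with the array spread as a covariate and, where single animals decide them, without those animals. For single omissions the share of all genes called is not printed, so those counts are no result about these genes in particular. The spread comes from the same log2 values and differs between groups. A fit with it as a covariate can therefore remove a difference between groups along with a technical one, and these cannot be told apart here.

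**Figure D1:**
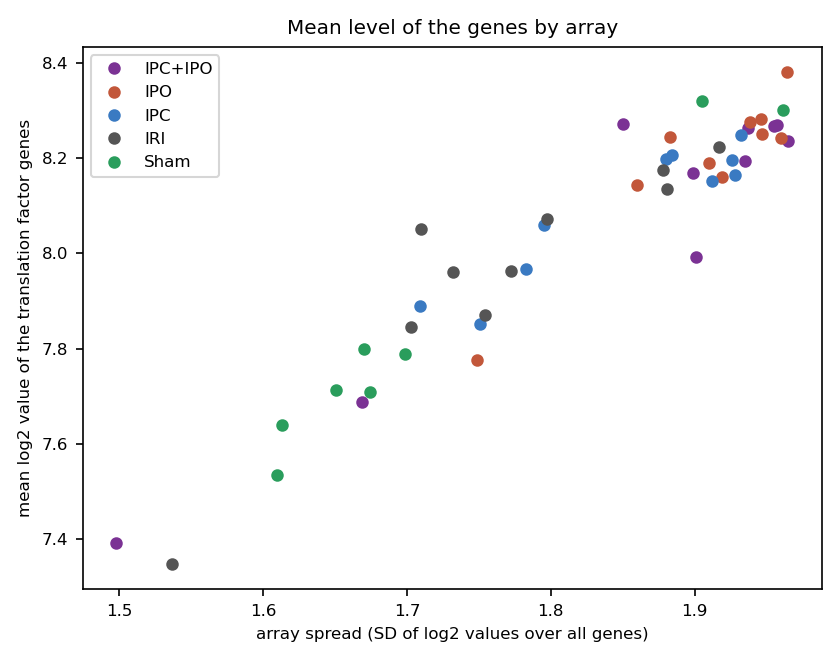
Mean log2 value of the 49 translation factor genes on each array (y axis) against the SD of the log2 values over all genes of that array (x axis), with 1 point per animal, coloured by group. Arrays of low spread have low mean levels in every group, and 6 of the 8 Sham arrays are among the 14 arrays of lowest spread, against 1 of 10 IPO arrays.

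After ischemia and reperfusion without an intervention, Rack1 and 1 elongation factor rose relative to Sham livers, and no initiation factor passed the test. Rack1 rose 1.89-fold and Eef1g, the gamma subunit of the eEF1 complex, rose 1.46-fold. These were the 2 of 49 genes (4.08%) that passed the threshold, an adjusted p under 0.05 by limma with Benjamini-Hochberg adjustment over all genes. None fell. Of all 14506 genes, 0.241% were called, 0.172% as higher and 0.0689% as lower. The median log2 difference was 0.09 over the 49 genes, against 0.03 over all genes, and 35 of the 49 were above 0.

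Rack1 had log2 values of 10.23 at the lowest, 10.39 at the median and 10.83 at the highest in IRI livers, against 8.83, 9.45 and 10.52 in Sham livers. All 10 IRI values lay above the Sham median and 3 lay above every Sham value, while the Sham values spread over a wider range and overlapped the IRI values at their upper end. The log2 difference was 0.91 ± 0.17 (SE; 95% interval 0.56 to 1.27; adjusted p = 0.0137). The highest Sham values of Rack1, 10.52 in animal 48 and 10.19 in animal 43, came from the 2 Sham arrays of highest spread, 1.91 and 1.96. In the other 6 Sham livers Rack1 lay between 8.83 and 9.63. Without the 14 arrays of lowest spread, a choice made after the data were seen, 6 IRI and 2 Sham arrays remained, and the Rack1 difference was 0.01 (adjusted p = 0.986). With array spread as a covariate and all arrays kept it was 0.83 ± 0.15 (adjusted p = 0.00151).

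Eef1g ranged from 9.95 to 10.55 with a median of 10.35 in IRI livers, against 9.29 to 10.32 with a median of 9.63 in Sham livers. Again all 10 IRI values were above the Sham median, and 6 were above every Sham value. The difference was 0.55 ± 0.12 (SE; adjusted p = 0.0390), and 0.46 ± 0.079 with the spread covariate (adjusted p = 9e-04). Without the 14 arrays of lowest spread it was 0.12 (adjusted p = 0.618).

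Of the other elongation factors, Eef1b2 and Eef2 had differences near that of Eef1g and the rest had smaller ones, and none passed. Eef1b2, the nucleotide exchange subunit of the eEF1 complex, averaged 10.16 ± 0.17 in IRI livers (SD, n = 10) and 9.60 ± 0.74 in Sham livers (SD, n = 8), a difference of 0.56 ± 0.18 (SE) that did not pass (adjusted p = 0.166). Eef2, the translocase, had values from 9.98 to 11.43 with a median of 11.02 in IRI livers, against 9.64 to 11.38 with a median of 10.15 in Sham livers. The ranges overlapped almost fully, and the difference of 0.57 ± 0.20 (SE) did not pass (adjusted p = 0.208). Eef1a1, the main carrier of aminoacyl-tRNA, averaged 12.36 ± 0.20 in IRI livers and 12.27 ± 0.17 in Sham livers (SD), a difference of 0.09 (adjusted p = 0.801), and its second probe set gave the same 0.09. The 6 genes grouped as eEF1, which include Eef1e1 although it is not a subunit of that complex, all had differences above 0, with a median of 0.26, and 1 of 6 was called. Eif5a, the hypusine-containing factor that helps ribosomes through difficult peptide bonds, ranged from 10.10 to 10.69 in IRI livers, against 9.75 to 10.37 in Sham livers, with 6 IRI values above every Sham value. Its difference of 0.31 ± 0.079 (SE) had an adjusted p of 0.0588, and with the spread covariate it was 0.29 and passed (adjusted p = 0.0125).

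**Figure D2:**
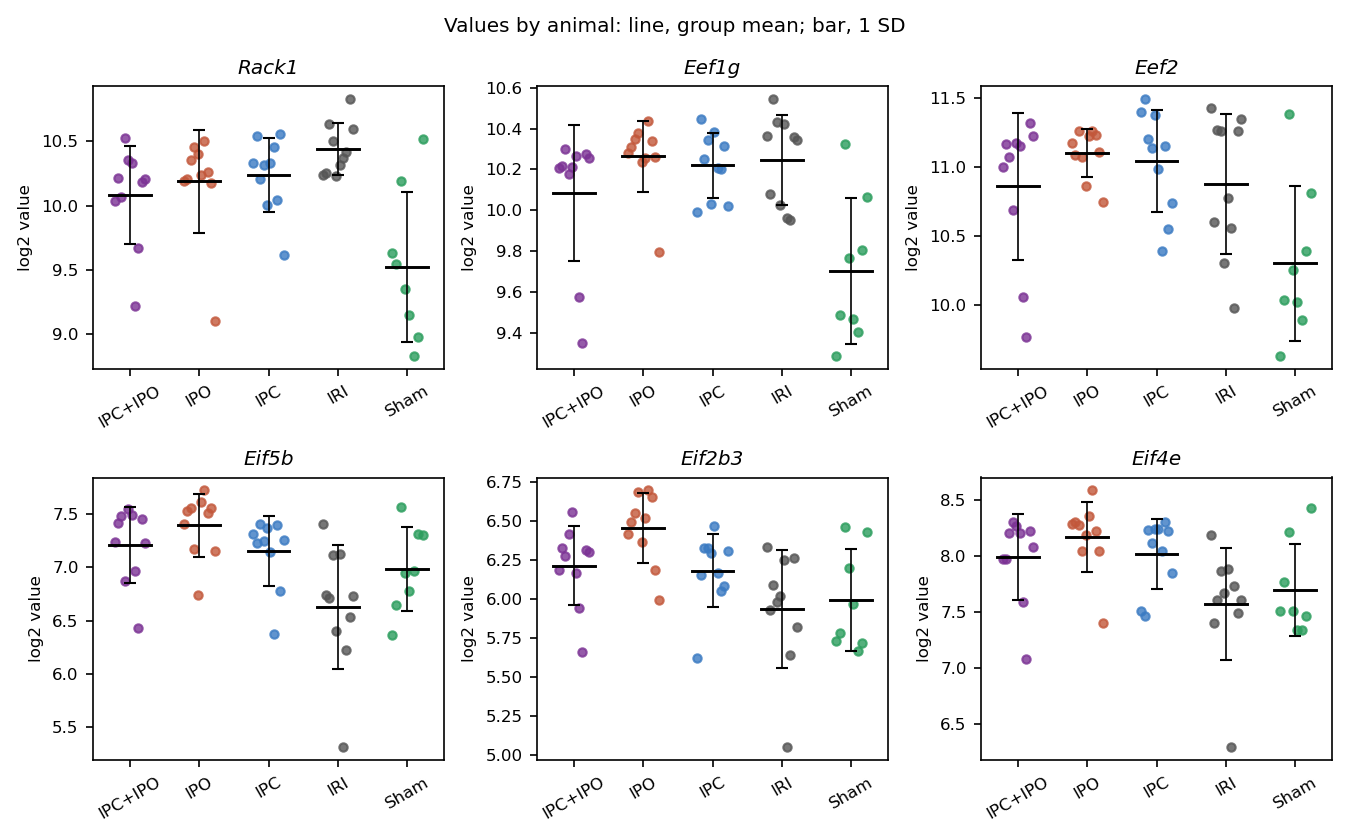
Log2 values of 6 genes by group, with 1 point per animal, a line at the group mean and a bar of 1 SD (10 animals per group, 8 in Sham). Rack1 and Eef1g lie above the Sham median in all 10 IRI animals, while Eif5b, Eif2b3 and Eif4e have their highest group median in IPO animals.

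The 9 measured TOP genes all had differences above 0, with a median of 0.33, and 2 of 9 were called higher (22.2%). The other 40 members had a median of 0.06, with 26 above 0 and none called by limma (5 at an unadjusted p under 0.05). With the spread covariate the TOP genes had a median of 0.22 with 8 of 9 above 0, and the others a median of -0.02. The TOP genes were chosen with earlier results of these data known, and the contrast between the lists carries no test. It contains both genes that were called.

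Initiation factors varied around the Sham level. Eif4a1, the helicase, differed by 0.11 (adjusted p = 0.713), Eif2s1, the alpha subunit of eIF2 that stress kinases phosphorylate, by 0.04 (adjusted p = 0.978), and Eif4e by -0.12 (adjusted p = 0.863). Eif6, which keeps the large subunit from joining too early, differed by 0.29 ± 0.12 (SE; adjusted p = 0.334). The lowest value belonged to Eif5b, at -0.36 ± 0.19 (SE; adjusted p = 0.464). With array spread as a covariate, Eif5b (-0.47 ± 0.13 SE, adjusted p = 0.0262) and Eif4g2 (-0.34 ± 0.091 SE, adjusted p = 0.0201) were called lower in IRI than in Sham livers. Eif4g2 is an eIF4G relative without the eIF4E-binding part. In that fit 5 of 49 genes were called, 3 higher and 2 lower, against 5.89% of all genes.

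The IRI against Sham calls depend on few animals. Without Sham animal 45 or 47, whose Rack1 values were 9.15 and 8.98, none of the 49 genes passed, and the adjusted p of Rack1 reached 0.0616 at most. Without any 1 of IRI animals 3, 4, 6, 9 and 10 or Sham animals 41, 42, 44 and 46, only 1 gene passed, and without Sham animal 43 or 48, 4 did. Leaving out any 1 of these animals ended the call of Eef1g, except for Sham animals 43 and 48. Over all single omissions the Rack1 difference stayed between 0.82 and 1.06 and that of Eef1g between 0.49 and 0.63. In the same comparison the erythroid marker list had a median difference of 0.78 with 0 of 4 measured genes called, and summed log2 levels of 32.2 to 37.9 in IRI livers against 31.1 to 36.1 in Sham livers. Of the stellate cell list, 1 of 6 genes was called lower, with a median of -0.17, and none of the other lists had a call. The part of the markers in these results was not tested.

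With postconditioning, 10 initiation factor genes rose relative to unconditioned IRI livers and no elongation factor passed the test. With array spread as a covariate none of the 10 passed, and without IRI animal 7, 2 did. Eif5b, the subunit-joining GTPase, rose 1.70-fold, and 3 subunits of eIF3, 2 of eIF2B, 1 of eIF2, the cap-binding protein Eif4e, Eif4g2 and Eif4h rose 1.34-fold to 1.76-fold. These were 10 of 49 genes (20.4%) by limma at an adjusted p under 0.05, and none fell. Over all genes 22.8% were called, 12.4% as higher and 10.4% as lower. The members' share is thus near the background in total and somewhat above it among higher calls. The elongation factors are few, so the lack of a call among them is no contrast with the initiation factors. The median log2 difference was 0.21 over the 49 genes, with 40 above 0, against -0.04 over all genes.

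Eif5b had log2 values of 6.74 at the lowest, 7.52 at the median and 7.72 at the highest in IPO livers, against 5.31, 6.72 and 7.40 in IRI livers. All 10 IPO values lay above the IRI median and 7 lay above every IRI value, and the lowest IRI value came from animal 7. The difference was 0.77 ± 0.17 (SE; 95% interval 0.42 to 1.12; adjusted p = 0.0112). In Sham livers Eif5b averaged 6.99 ± 0.40 (SD, n = 8), between the IPO mean of 7.40 ± 0.29 and the IRI mean of 6.63 ± 0.59 (SD, n = 10 each).

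In the eIF3 complex, the scaffold on which the initiation complex assembles, 3 of 10 measured subunits rose (30%), against 12.4% of all genes called higher. They were the core subunits Eif3a, Eif3b and Eif3c. With so few subunits this share is no result about the complex. Eif3a had values from 7.73 to 8.59 with a median of 8.39 in IPO livers, against 5.76 to 8.72 with a median of 7.67 in IRI livers, and differed by 0.82 ± 0.23 (SE; adjusted p = 0.0197). The IRI group was the more variable one, with an SD of 0.88 against 0.28, and its highest value exceeded every IPO value. Eif3b averaged 8.38 ± 0.28 in IPO and 7.67 ± 0.62 in IRI livers (SD), and Eif3c 8.48 ± 0.24 in IPO and 7.91 ± 0.50 in IRI livers (SD). Their differences were 0.71 and 0.58 (adjusted p = 0.0212 and 0.0227). The other 7 subunits did not pass, and the lowest difference in the complex was -0.15.

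In eIF2B, the exchange factor on which the stress response acts, 2 of 5 subunits rose (40%), against 12.4% of all genes called higher. The subunits are again too few for this share to be a result about the complex. Eif2b3, in the catalytic part, ranged from 5.99 to 6.70 with a median of 6.506 in IPO livers, against 5.05 to 6.33 with a median of 5.998 in IRI livers. Of the 10 IPO values 8 lay above every IRI value, and the difference was 0.52 ± 0.13 (SE; adjusted p = 0.0127). Eif2b1, in the regulatory part, averaged 7.09 ± 0.24 in IPO and 6.59 ± 0.38 in IRI livers (SD), a difference of 0.50 (adjusted p = 0.0201). All 5 subunits were above 0, with a median of 0.41. Among the eIF2 subunits, Eif2s3 rose by 0.42 ± 0.15 (SE; adjusted p = 0.0430), Eif2s1 differed by 0.49 ± 0.21 (adjusted p = 0.0796) and Eif2s2 by -0.26 ± 0.17 (adjusted p = 0.210). Of these, Eif2s2 alone was below 0.

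At the cap, Eif4e had values from 7.40 to 8.59 with a median of 8.25 in IPO livers, against 6.29 to 8.19 with a median of 7.64 in IRI livers, and 6 IPO values exceeded every IRI value. Its difference was 0.60 ± 0.17 (SE; adjusted p = 0.0188). Eif4h, which stimulates the helicase, averaged 8.52 ± 0.22 in IPO and 7.85 ± 0.68 in IRI livers (SD), a difference of 0.67 (adjusted p = 0.0205). Eif4g2 averaged 9.80 ± 0.18 in IPO and 9.36 ± 0.38 in IRI livers (SD), a difference of 0.44 (adjusted p = 0.0272). Eif4a1 differed by 0.04 (95% interval -0.14 to 0.22) and Eif6 by 0.20 (95% interval -0.03 to 0.44), and neither passed.

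Among the elongation factors no gene was called between IPO and IRI livers. Eef1e1 had the highest difference of the eEF1 group, 0.31 (95% interval 0.02 to 0.60; adjusted p = 0.0921). Eef1a1 differed by 0.11 (95% interval -0.07 to 0.29), Eef2 by 0.22 (-0.16 to 0.61), Eef1g by 0.02 (-0.21 to 0.25) and Rack1 by -0.25 (-0.58 to 0.08). After quantile normalization once more Rack1 was called lower (-0.40, adjusted p = 0.0343). In the fit of the deposited values none of the 6 genes of the eEF1 group was called, and their median was 0.01. The 9 TOP genes, which include the initiation factors Eif3e, Eif3h and Eif4b, had a median of 0.10 with none called (0 at an unadjusted p under 0.05). The other 40 members had a median of 0.30 with all 10 calls (25%, all higher), against 12.4% of all genes called higher and 22.8% in either direction. These intervals do not show that the elongation factors were equal in both groups.

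**Figure D3:**
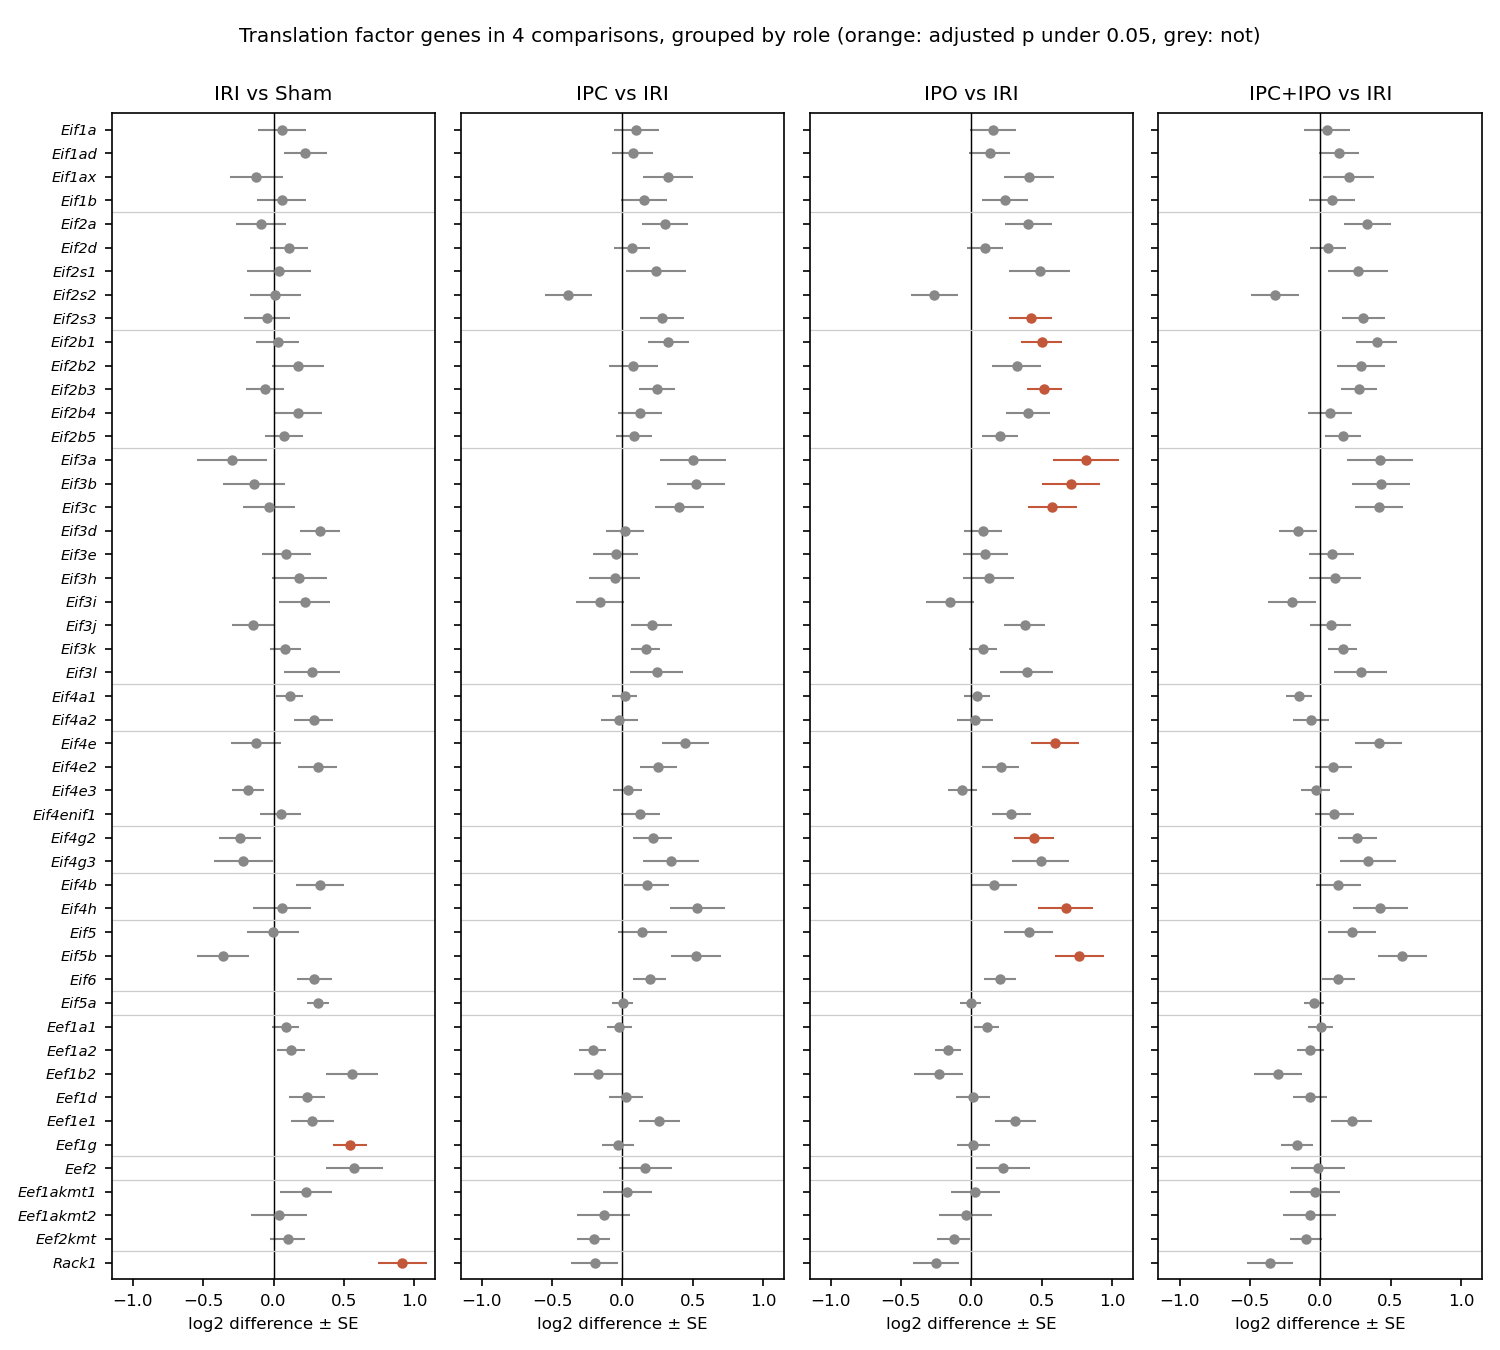
Log2 difference with its SE for each of the 49 genes (rows, grouped by role with grey lines between roles) in 4 comparisons (panels), with 1 point per gene, orange where the adjusted p was under 0.05. In IRI against Sham the called genes are Eef1g and Rack1, and in IPO against IRI they are 10 initiation factors.

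The difference between IPO and IRI livers went with array spread, which averaged 1.91 in IPO and 1.77 in IRI livers. With spread as a covariate none of the 49 genes was called (8 at an unadjusted p under 0.05), against 2 of all 14506 genes (0.0138%), and the median over the 49 was -0.05. Eif5b then differed by 0.41 (adjusted p = 0.275), Eif2b3 by 0.24 (adjusted p = 0.327) and Eif4e by 0.17 (adjusted p = 0.532). In that fit the 9 TOP genes were all below 0, with a median of -0.21, and Rack1 was at -0.50 ± 0.15 (SE; adjusted p = 0.227). Without the 14 arrays of lowest spread 6 of 49 genes were called. Without IRI animal 7 the count was 2, Eif5b (0.62, adjusted p = 0.0397) and Eif2b3 (0.42, adjusted p = 0.0444), which no single omission removed. Without IPO animal 30 it was 16 and without IRI animal 1 it was 18. Eif4g2 was also lost without IRI animal 9, and Eif2s3 without any 1 of 13 animals. Kupffer cell markers had a median of 0.39 in the same comparison, with 2 of 6 called higher, and summed log2 levels of 41.5 to 50.4 in IPO livers against 39.6 to 48.3 in IRI livers. Erythroid markers had a median of -0.39 with 1 of 4 called lower, and summed log2 levels of 30.5 to 37.5 in IPO livers against 32.2 to 37.9 in IRI livers. Of 6 genes in each list, 1 hepatocyte gene was called higher and 1 lower (median 0.12), 1 stellate cell gene higher (median 0.18) and 1 neutrophil gene lower (median -0.14). The part of these markers in the result was not tested.

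**Figure D4:**
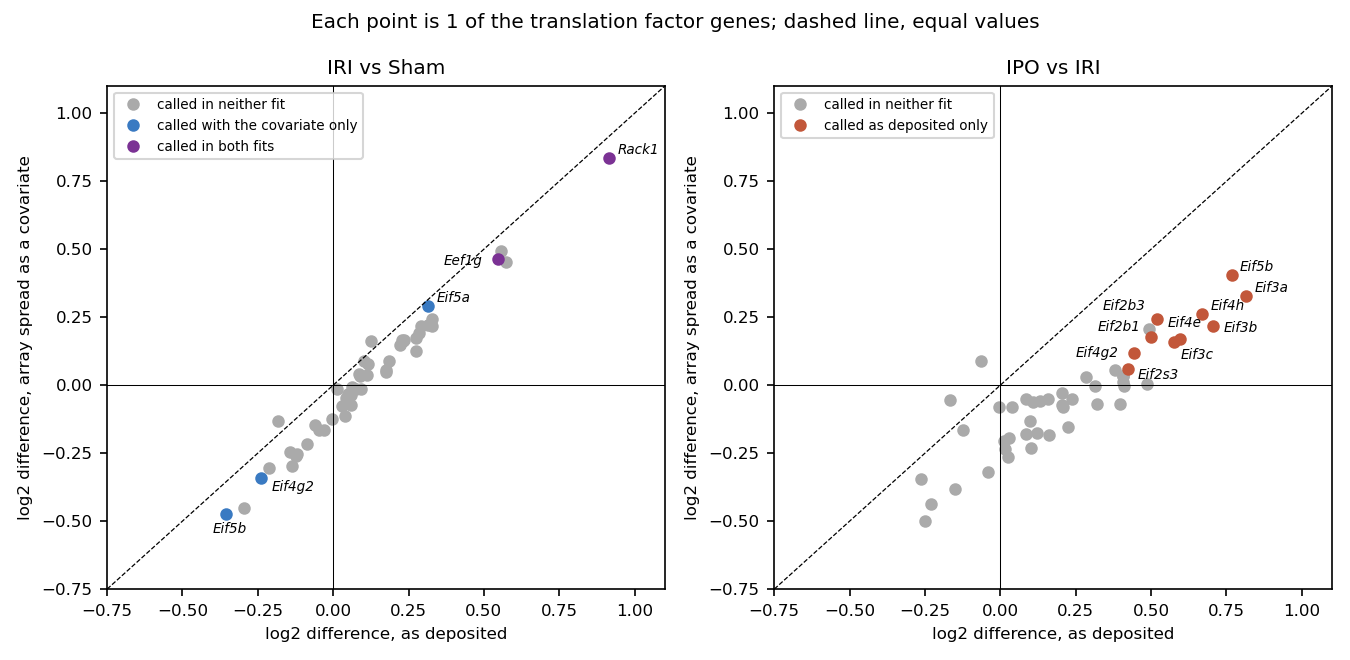
Log2 difference of each of the 49 genes with array spread as a covariate (y axis) against the difference as deposited (x axis), for IRI against Sham (left) and IPO against IRI (right), with 1 point per gene, coloured by whether limma called it in either fit. In IRI against Sham, Rack1 and Eef1g are called in both fits. In IPO against IRI all genes except Eef1a2 and Eif4e3 lie below the dashed line of equal values. None of the 10 genes called there as deposited is called with the covariate.

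Preconditioning alone gave no call against IRI livers among these genes, and the 4 of smallest p were initiation factors. In IPC against IRI livers none of the 49 genes passed (9 at an unadjusted p under 0.05), and of all genes 0.0276% did, 0.0138% in each direction. Eif5b averaged 7.15 ± 0.33 in IPC and 6.63 ± 0.59 in IRI livers (SD), a difference of 0.52 ± 0.17 (SE; adjusted p = 0.165). Eif4h differed by 0.53, Eif4e by 0.45 and Eif3b by 0.52 (adjusted p = 0.178, 0.182 and 0.196). Rack1 was at -0.20 (adjusted p = 0.472), Eef1a1 at -0.02, Eef2 at 0.16, Eif4a1 at 0.02, Eif2s1 at 0.24 and Eif6 at 0.19. The median over the 49 genes was 0.13, with 37 above 0, against -0.01 over all genes, and it was -0.04 with the spread covariate. Kupffer cell markers had a median of 0.52 and erythroid markers one of -0.47 in this comparison, with none called in any marker list.

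The combined procedure likewise gave no call against IRI livers, either among the 49 genes (9 at an unadjusted p under 0.05) or among all genes (0%). Eif5b averaged 7.21 ± 0.36 in IPC+IPO and 6.63 ± 0.59 in IRI livers (SD), a difference of 0.58 ± 0.17 (SE; adjusted p = 0.0973), and 5 IPC+IPO values exceeded every IRI value. Eif2b1 differed by 0.40, Eif4e by 0.42 and Eif3c by 0.42 (adjusted p = 0.129, 0.160 and 0.170). Rack1 ranged from 9.22 to 10.53 with a median of 10.20 in IPC+IPO livers, against 10.23 to 10.83 with a median of 10.39 in IRI livers. Of the 10 IPC+IPO values 7 lay below every IRI value, and the difference was -0.36 ± 0.16 (SE; adjusted p = 0.203), called lower after quantile normalization once more (-0.46, adjusted p = 0.0496). Eef1a1 was at 0.00, Eef2 at -0.02, Eif4a1 at -0.15, Eif2s1 at 0.27 and Eif6 at 0.13. The median over the 49 genes was 0.10, with 33 above 0, against -0.02 over all genes, and it was -0.06 with the spread covariate. Without IPC+IPO animal 38, the array of lowest spread, 6 of 49 genes passed, and without IRI animal 1, 2 did. Shares of all genes in those fits are not printed, so these counts only describe how the fit changed. The 3 comparisons with IRI share the IRI arrays, so their values are not independent of each other.

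Each conditioned group was also set against Sham livers. In IPC livers 7 of 49 genes were called higher (14.3%) and none lower, against 6.58% of all genes, 5.6% as higher and 0.986% as lower. In IPO livers 17 of 49 were called higher (34.7%) and none lower, against 23.2% of all genes, 15.4% as higher and 7.76% as lower. In IPC+IPO livers 2 of 49 were called higher (4.08%) and none lower, against 3.62% of all genes, 3.05% as higher and 0.565% as lower. The medians over the 49 genes were 0.23, 0.33 and 0.23 for IPC, IPO and IPC+IPO, against 0.01, 0.00 and 0.01 over all genes. These comparisons share the Sham arrays. Of the Kupffer cell markers, 0 of 6 were called in IPC, 1 higher in IPO and 1 higher in IPC+IPO livers (medians 0.54, 0.42 and 0.40). In IPO against Sham 1 hepatocyte gene was also called lower (list median 0.04). There 1 neutrophil gene (list median -0.14) and 2 stellate cell genes (list median -0.21) were called higher, although their list medians were below 0. The part of these markers was not tested.

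Genes called in both IPC and IPO against Sham were Eef1e1, Eef1g, Eef2, Eif4e2, Eif5a, Eif6 and Rack1, which are all 7 of the IPC calls. Eef1e1 is a small companion of the aminoacyl-tRNA synthetase complex, and Eif4e2 is a cap-binding relative of eIF4E linked to translational repression. Eef1g differed from Sham by 0.52 in IPC and by 0.56 in IPO (adjusted p = 0.00974 and 0.00372), with 10 of 10 values above the Sham median in both groups. Rack1 averaged 10.24 ± 0.29 in IPC livers (SD, n = 10) and 9.52 ± 0.59 in Sham livers (SD, n = 8), a difference of 0.72 (adjusted p = 0.0126), and in IPO livers the difference was 0.67 (adjusted p = 0.00909). Eif6 had values from 7.56 to 8.36 with a median of 8.16 in IPO livers, against 7.13 to 8.11 with a median of 7.57 in Sham livers, and differed by 0.49 ± 0.12 (SE; adjusted p = 0.00724). The further 10 IPO calls included 4 of 5 eIF2B subunits (Eif2b1, Eif2b2, Eif2b3 and Eif2b4) and 3 of 10 eIF3 subunits (Eif3c, Eif3d and Eif3l). The others were Eif4b, Eif4e and Eif4h. Differences of these 10 genes ranged from 0.41 to 0.73, and 15.4% of all genes were called higher in this comparison. Eif3h, another eIF3 subunit, differed by 0.31 on the probe set used (adjusted p = 0.216) and by 0.38 on its second one, which passed (adjusted p = 0.0315).

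In IPC+IPO livers the called genes were Eif5a (0.27 ± 0.079 SE, adjusted p = 0.0423) and Eif6 (0.42 ± 0.12 SE, adjusted p = 0.0432). Both calls were lost without any 1 of 14 animals, 8 of them in IPC+IPO (31 to 36, 39 and 40) and 6 in Sham (41, 42 and 44 to 47). Without IPC+IPO animal 38 the count was 14, without IPC+IPO animal 37 it was 11, without Sham animal 43 or 48 it was 12 or 10, and without IRI animal 7 or IPO animal 30 it was 5. In IPC against Sham the count was 2, 11 or 12 when Sham animal 46, 43 or 48 was left out. In IPO against Sham it was 27 or 11 without Sham animal 43 or 46. None of the 49 genes was called in any conditioned group against Sham once array spread was a covariate. In that fit 1.9% (IPC), 0% (IPO) and 0.234% (IPC+IPO) of all genes were called, so the lack of calls is not particular to the 49 genes. The medians over the 49 genes then were -0.03 (IPC), -0.04 (IPO) and -0.06 (IPC+IPO).

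Between conditioned groups none of the 49 genes, and none of all genes (0%), passed by limma. At an unadjusted p under 0.05 there was 1 of 49 in IPO against IPC, 0 in IPC+IPO against IPC and 3 in IPC+IPO against IPO. Eif2b3 was 0.27 higher in IPO than in IPC livers (95% interval 0.02 to 0.53; adjusted p = 0.835), and Eif2b4 0.28 higher (-0.04 to 0.59; adjusted p = 0.835). Against IPO livers, IPC+IPO livers had Eif2b4 at -0.34 (-0.65 to -0.02) and Eif4a1 at -0.19 (-0.38 to -0.01), both with an adjusted p of 0.938. Against IPC livers, IPC+IPO livers had Eif4a1 at -0.17 and Eef1a2, the muscle and neuronal form of the carrier, at 0.14 (adjusted p = 0.9998 for both). The interaction of the interventions asks whether the combined difference from IRI equals the sum of the single ones. It gave no call among the 49 genes (12 at an unadjusted p under 0.05) or among all genes (0%), with a median of -0.26 over the 49, against 0.03 over all genes. Eif5b had an interaction of -0.71 ± 0.25 (SE; adjusted p = 0.208) and Eif4h of -0.77 ± 0.27 (SE; adjusted p = 0.209). With spread as a covariate the median interaction over the 49 genes was 0.00.

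Of 44 measured genes that act on or beside these factors (kinases and phosphatase subunits of eIF2, eIF4E-binding proteins, release and recycling factors, helicases and mTOR pathway genes), 11 were called higher and 1 lower in IPO than in IRI livers (27.3%, against 22.8% of all genes). The higher calls were 25% of the 44, against 12.4% of all genes, and the lower call was 1 of 44, against 10.4% of all genes. Pdcd4, an inhibitor of the helicase eIF4A, had values from 7.40 to 8.47 with a median of 8.17 in IPO livers, against 4.86 to 7.92 with a median of 7.24 in IRI livers. Of the IPO values 7 lay above every IRI value, and the difference was 1.07 ± 0.26 (SE; 2.10-fold; adjusted p = 0.0120). The helicases Ddx3x and Dhx9 rose by 0.77 and 0.66, and the release factor Gspt1 and the recycling factor Abce1 by 0.79 each. Eif2ak2, the RNA-activated eIF2 kinase, rose by 0.80, Rps6kb1, a kinase downstream of mTOR, by 0.63, and Dph5, which takes part in making the diphthamide of eEF2, by 0.55. Adjusted p values of these 8 genes lay between 0.0120 and 0.0248. Eif4ebp1, the mTOR-regulated inhibitor of eIF4E, was singled out after its values were seen as the 1 gene called lower. It averaged 7.96 ± 0.10 in IPO and 8.26 ± 0.39 in IRI livers (SD), a difference of -0.30 ± 0.11 (SE; adjusted p = 0.0480).

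None of the 44 was called by limma in IRI against Sham (9 at an unadjusted p under 0.05), where the smallest p belonged to Mknk2, a kinase of eIF4E (0.46, adjusted p = 0.185), Tpt1, itself a TOP mRNA in mammals (0.30, adjusted p = 0.186), and Eif4ebp1 (0.34, adjusted p = 0.191). None was called in IPC against IRI (8 at an unadjusted p under 0.05) or in IPC+IPO against IRI (11). Ppp1r15a, the stress-induced subunit that directs a phosphatase to eIF2, had values from 5.81 to 8.77 with a median of 7.65 in IPC livers, against 5.68 to 7.29 with a median of 6.40 in IRI livers. Of the IPC values 6 lay above every IRI value, and the difference was 0.98 ± 0.29 (SE; adjusted p = 0.155). In IPC+IPO against IRI it differed by 0.80 (adjusted p = 0.136), Ddx3x by 0.66 (adjusted p = 0.0942) and Pdcd4 by 0.80 (adjusted p = 0.107), and in IPC against IRI Ddx3x differed by 0.56 and Gspt1 by 0.54 (adjusted p = 0.164 and 0.199). Against Sham livers 2 of the 44 were called higher in IPC+IPO (4.55%), 12 in IPO (27.3%) and 1 in IPC (2.27%), and none lower, against 3.62%, 23.2% and 6.58% of all genes called in either direction. Ppp1r15a was called in all 3 of these comparisons. It averaged 7.22 ± 0.95 in IPC+IPO, 7.21 ± 0.56 in IPO and 7.40 ± 0.80 in IPC livers (SD, n = 10 each), against 5.74 ± 0.52 in Sham livers (SD, n = 8). The differences were 1.48, 1.47 and 1.66 (adjusted p = 0.00907, 0.00331 and 0.00161). With array spread as a covariate no related gene was called in the 3 comparisons with IRI. In that fit 6 of 44 were called lower in IRI against Sham, where 424 of all 14506 genes were called lower. Against Sham, 1 of 44 was called higher and 1 lower in IPC livers, against 1.9% of all genes in either direction. None of the 44 was called in IPO or IPC+IPO livers against Sham (0% and 0.234% of all genes), so the Ppp1r15a calls there were lost.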

How the data were processed

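Total RNA of 48 liver biopsies was hybridised to 48 arrays. The deposited values are log2 levels per probe set, made by the authors with RMA in Affymetrix Expression Console, per the submitters' processing notes; the version, the array batches and the genome build are not given in the sources used here. Of 29215 probe sets, 15310 had 1 symbol in the platform annotation, 323 had several and 13582 had none here. The probe set of highest mean was kept for each of 14506 genes. Intensities before RMA were not used here. The number of arrays is among the limits on precision.

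All 5 groups were fitted together with limma 3.58.1 in R 4.3.3 (lmFit and eBayes, 43 residual degrees of freedom, two-sided, no covariate), with Benjamini-Hochberg adjustment over all genes and a threshold of 0.05. The code was tested on simulated data with independent noise for each gene, without differences in spread between arrays like those seen here. Members, role groups, the TOP list, the related genes and the rule for named genes were chosen with earlier results of these data known. The rule took, in the 4 main comparisons, the members past the threshold (at most 12) or the 4 of smallest p, in the others the 2 of smallest p, and always Rack1, Eef1a1, Eef2, Eif4e, Eif4a1, Eif2s1 and Eif6; of the related genes it took at most 8 past the threshold or the 3 of smallest p. Any other gene, or a gene named in a comparison where the rule did not pick it, was singled out after its values were seen. Animals are separate, so p-values measure the spread between rats. Start windows come from RefSeq, GRCr8. Markers of 8 cell types were read out of the same fit, and lists with a called gene are given beside the results. Plots used matplotlib 3.10.9 (Python 3.11.15).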

Additional observations from a re-analysis of the deposited data

Results flagged for a closer look

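Of 105 combinations of a named gene and a group tested for a value far from the others of its group, 20 had one. Chance gives about 1 in 20 such combinations, and the combinations are not independent because they share arrays. Of these, 8 came from IPO animal 30, which was low for Rack1 (9.1), Eef1g (9.8), Eif5a (10.05), Eef1b2 (9.27), Eif4e (7.4), Eif2s3 (7.64), Eif6 (7.56) and Eef1a1 (12.29). Another 7 came from IPC+IPO animal 38, which was low for Eif3a (6.77), Eif3b (6.55), Eif3c (7.2), Eif4g2 (8.43), Eif2b4 (5.84) and Eif4a1 (8.71) and high for Eef1a2 (6.66). A further 3 came from IRI animal 7, which was low for Eif4e (6.29), Eif2s1 (6.45) and Eif2s3 (6.54). The remaining ones were Eif2b3 in IPC animal 11, which was low (5.62), and Eef1a2 in IPO animal 24, which was high (6.51). Array spread was 1.749 in IPO animal 30, the lowest of its group, and 1.498 in IPC+IPO animal 38 and 1.537 in IRI animal 7, the 2 lowest values of the series.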

How the results depend on the processing

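No paired analysis was possible because each animal number occurs in 1 group. The number of arrays and the overlap of the groups' values limit what can be called. Arrays centred on their medians, or the probe set of largest variance for each gene, changed no direction and no call among the 60 values of named genes. Counts of the 49 genes called moved by over 1.5 times under the settings that follow. For most of these settings, and for single omissions, the share of all genes called in the same fit is not printed. Such counts describe how the fit changed and are no result about these genes in particular. In IRI against Sham the count was 2, and it was 1 with trended and robust variances, 15 with array weights, 5 with array spread as a covariate, 0 without the 14 arrays of lowest spread (added after the data were seen), 0 in a fit of those groups alone, and 0 to 4 when single animals were left out. In IPO against IRI it was 10, and it was 23 with array weights, 0 with spread as a covariate, 6 without the 14 arrays, 2 without IRI animal 7 and 2 to 18 over all single omissions. In IPC against IRI it was 0, and 1 with array weights. In IPC+IPO against IRI it was 0, and it was 16 with array weights, 3 after quantile normalization once more, 3 without the 14 arrays, and 0 to 6 over single omissions. In IPC against Sham it was 7, and it was 36, 3, 0 and 0 with array weights, renewed quantile normalization, spread as a covariate and without the 14 arrays, and 2 to 12 over single omissions. In IPO against Sham it was 17, and under those 4 settings 44, 1, 0 and 0, with 28 in a fit of those groups alone and 11 to 27 over single omissions. In IPC+IPO against Sham it was 2, and it was 0 with trended and robust variances, 42 with array weights, 5 without the dimmest genes (33.3% of all), 0 with spread as a covariate, 5 without IRI animal 7, 0 without the 14 arrays, 0 in a fit of those groups alone, and 0 to 14 over single omissions. The interaction had 0, and 1 with array weights. The cause of these shifts was not tested. Where arrays or groups were left out, fewer samples remained, and counts rose in some cases and fell in others.

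Directions of named genes turned as follows, and none of the turned values passed the threshold. With spread as a covariate the turned values were, for Eef1a1, -0.0634 (IPO against IRI) and -0.107 (IPC+IPO against IRI). For Eef2 they were -0.0569 (IPC against IRI) and -0.153 (IPO against IRI), and for Eif4a1 -0.0538 (IPC against IRI) and -0.0789 (IPO against IRI). For Eif2s1 they were -0.114 (IRI against Sham), -0.0431 (IPC against IRI) and -0.0349 (IPC+IPO against IRI), and for Eif6 -0.0275 (IPO against IRI) and -0.0173 (IPC+IPO against IRI). After quantile normalization once more, they were -0.0469 for Eif5a (IPC+IPO against Sham), -0.0644 for Eef1a1 (IPC+IPO against IRI), -0.0758 for Eif2s1 (IRI against Sham), and -0.101, -0.0991 and -0.132 for Eif4a1 (IRI against Sham, IPC against IRI, IPO against IRI). For Eif6 they were -0.00048 (IPC against IRI), -0.0767 (IPO against IRI) and -0.0553 (IPC+IPO against IRI). With array weights they were 0.0262 for Eef1a1 (IPC against IRI), 0.22 for Eef2 (IPC+IPO against IRI) and 0.14 for Eif4e (IRI against Sham). Without the 14 arrays, IRI against Sham gave -0.0040 for Eif5a, -0.19 for Eef1b2, -0.0708 for Eef1a1, -0.16 for Eef2, -0.53 for Eif2s1 and -0.12 for Eif6, with 2 Sham arrays left. The same setting gave -0.15 for Rack1 (IPC against Sham), -0.0087 for Eef1a1 and 0.16 for Eef2 (IPC+IPO against IRI), and -0.0070 and -0.0106 for Eif4a1 (IPC and IPO against IRI). Over single omissions, IRI against Sham ranged from -0.19 to 0.0179 for Eif4e (the upper end without IRI animal 7) and from -0.0713 to 0.17 for Eif2s1 (likewise). IPC against IRI ranged from -0.0717 to 0.0489 for Eef1a1 and from -0.0124 to 0.053 for Eif4a1, and IPC+IPO against IRI from -0.0478 to 0.0564 for Eef1a1 and from -0.12 to 0.10 for Eef2. With renewed quantile normalization Rack1 passed as lower in IPO against IRI (-0.40, adjusted p = 0.0343) and in IPC+IPO against IRI (-0.46, adjusted p = 0.0496).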
